A study of Mus musculus with 165 samples.

Results

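The 10 genes described here encode the STAT proteins STAT3, STAT5A and STAT5B and 7 genes that the STAT pathway is known to switch on: the feedback inhibitors *Socs1*, *Socs2*, *Socs3* and *Cish*, the kinases *Pim1* and *Pim2*, and the cytokine *Osm*. They were taken by symbol from the deposited table of 36255 genes, and all 10 were present and passed the filter on low values. They were followed through the RNA-Seq libraries of PUER cells, a single myeloid progenitor line of PU.1-null (Spi1-/-) mice. The labels give bone marrow as its source, whereas the introduction of the paper names fetal liver. Every library therefore lacks endogenous PU.1 and carries a PU.1 fusion with the estrogen receptor, which becomes active when 4-hydroxytamoxifen (OHT) is added. Undifferentiated cells (3 libraries) grew in 5 ng/mL IL3 without OHT. GCSF 0h cells (3 libraries) had spent 48 h in 10 ng/mL GCSF in place of IL3, also without OHT, although the titles of these libraries name OHT. IL3-OHT cells (81 libraries) stayed in IL3 and received 200 nM OHT, and GCSF-OHT cells (78 libraries) stayed in GCSF and received 100 nM OHT, each at 27 time points from 1h to 168h. The cytokine and the dose of OHT therefore cannot be told apart after 0h, and no vehicle-treated libraries were analysed here, so OHT and the handling at its addition cannot be told apart either. The replicates are separate libraries of 1 cell line, and the p-values measure the spread between such libraries.

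IL3 and GCSF both act through receptors that carry JAK kinases, and these kinases phosphorylate STAT proteins, which then enter the nucleus and switch on target genes. IL3 signals through the shared β chain of its receptor and mainly through STAT5, whereas the GCSF receptor is known for STAT3 as well as STAT5. *Cish*, *Socs1*, *Socs2* and *Socs3* are textbook targets of this signal and close a feedback loop. CIS, the product of *Cish*, and SOCS2 dampen STAT5 signaling, SOCS1 inhibits JAK kinases directly, and SOCS3 is the main brake on the GCSF receptor in neutrophils. PIM1 and PIM2 are serine/threonine kinases that favor survival and growth, and oncostatin M, the product of *Osm*, is a cytokine of the IL6 family.

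Because STAT dimers bind the palindrome TTCNNNGAA, this motif was searched in RefSeq promoter windows, which span 250 bases before to 50 bases after a transcription start (build GRCm38.p6). The motif reads the same on both strands. Of 32851 windows, 2726 (8.30%) held it and 150 (0.457%) held more than 1 copy. Windows were given for 8 of the 10 genes, 11 windows in all, and those of *Cish* and *Socs3* held the motif. Both are shown because they are the places among these windows where the motif was found, with the motif in capitals:
Cish, chr9:107296654-107296683, plus strand: cagttTTCCTGGAAagTTCTTGGAAatctg
Socs3, chr11:117969501-117969530, minus strand: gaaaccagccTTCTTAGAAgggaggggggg
In *Cish* (ENSMUSG00000032578, chromosome 9 from 107296026 to 107302784) the copies are 2 bases apart and begin at base 1 and base 12 of the RefSeq transcript, within a 5′ untranslated exon of the GENCODE M21 annotation. In *Socs3* (ENSMUSG00000053113, chromosome 11 from 117966079 to 117970047) the copy occupies 117969512 to 117969520, upstream of the RefSeq start, where the annotation gives an intron. The letters were not found in the windows of *Socs1*, *Pim1*, *Pim2*, *Stat3*, *Stat5a* and *Stat5b*. No binding was measured here, and a match is only a description of the sequence.

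*Stat5b* (ENSMUSG00000020919, from 100780731 to 100850724), *Stat5a* (ENSMUSG00000004043, from 100859351 to 100885169) and *Stat3* (ENSMUSG00000004040, from 100885098 to 100939540) are neighbors on chromosome 11. The 3′ ends of *Stat5a* and *Stat3*, on opposite strands, overlap by 72 bases. Of the 31-base words in its transcripts, *Stat5a* shares 11.5% with *Stat5b*, and *Stat5b* shares 15.1% with *Stat5a*, so part of their reads could have been divided between them by the quantification. *Socs2* shared 6.18% and *Pim2* 4.52% of their words with other genes, and the other 6 genes at most 1.72%. Transcripts annotated as antisense overlap *Cish* and *Pim1*, and reads from both strands cannot be told apart if the libraries were not stranded.

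Reads counted on genes ran from 14600246 to 33147945 per library (median 21960878), and 3 reads corresponded to a normalized count of 1.96 to 5.51. The lowest count of any of the 10 genes in any library was 18 reads, of *Socs1* at GCSF-OHT 4h, so none fell to this limit, which covers counting error only. The myeloid label of the cells was checked with markers. All 6 neutrophil markers were above the limit in undifferentiated cells, and their summed normalized count was 169126 to 173977 there, 216799 to 243109.7 at GCSF 0h, 140205 to 157075 at IL3-OHT 168h and 395386 to 414038 at GCSF-OHT 168h. Single markers went both ways (thresholds below). At GCSF 0h against undifferentiated cells 3 were called higher and 1 lower (33.7% of all genes called). At IL3-OHT 168h against undifferentiated cells 3 were higher and 2 lower (25.4% of all genes). At GCSF-OHT 168h against GCSF 0h 4 were higher and 2 lower (24.8% of all genes). The 5 macrophage and monocyte markers summed to 639 to 659.7 in undifferentiated cells, 283 to 346 at GCSF 0h (with *Csf1r* and *Mmp12* at or under the limit), 9369 to 10334 at IL3-OHT 168h and 7255 to 8246 at GCSF-OHT 168h. In the same comparisons, 1 of the 5 was called higher and 4 lower at GCSF 0h. At 168h 4 were called higher and 0 lower in IL3, and 5 higher and 0 lower in GCSF. Of 4 progenitor markers, which summed to 11239 to 12502 in undifferentiated cells and 5836 to 6456 at GCSF 0h, *Cd34* was at or under the limit. Of 4 mast cell and basophil markers *Cpa3* and *Fcer1a* were at or under it, and the list summed to 176.6 to 204.6 in undifferentiated cells and 242.6 to 262.8 at GCSF 0h. Of 3 lymphocyte markers 1 was above it, and the list summed to 11.8 to 18.3 in undifferentiated cells and 3.70 to 5.59 at GCSF 0h. The part of these shifts in cell state in the results on the 10 genes was not tested, and in bulk libraries fewer expressing cells and less RNA per cell cannot be told apart. The authors excluded IL3-OHT 96h and 144h, and these are used here only where they are named.

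The feedback genes *Socs1* and *Cish* did not overlap between the cytokines over the whole courses after OHT. *Socs1* ran from 18.8 to 84.4 normalized counts in the 78 GCSF-OHT libraries (median 47.4) and from 211.6 to 1312 in the 75 IL3-OHT libraries (median 501). *Cish* ran from 499 to 1607 in GCSF-OHT (median 1010.2) and from 5041 to 8876 in IL3-OHT (median 6876). No GCSF-OHT library of either gene reached the lowest IL3-OHT library at any time. The share of all genes whose whole courses do not overlap was not determined. *Osm*, with medians of 146.9 and 565, and *Socs2*, with medians of 292 and 944, overlapped over the whole courses but not within a time point. *Stat3*, *Stat5a* and *Stat5b* lay the other way, with every GCSF-OHT library above every IL3-OHT library at each of the 25 shared time points. The 7 genes without overlap in 1 direction at all 25 time points compare with 8.08% of all genes tested. *Pim1* overlapped widely over the whole courses, with a median of 17109.8 in GCSF-OHT and 15819.9 in IL3-OHT. Within time points, all its GCSF-OHT libraries lay above those of IL3-OHT at 6 and below them at 7. For *Socs3* they lay above at 5 and below at 18, and for *Pim2* above at 0 and below at 18. The share of all genes with such counts was not determined.

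**Figure D1:**
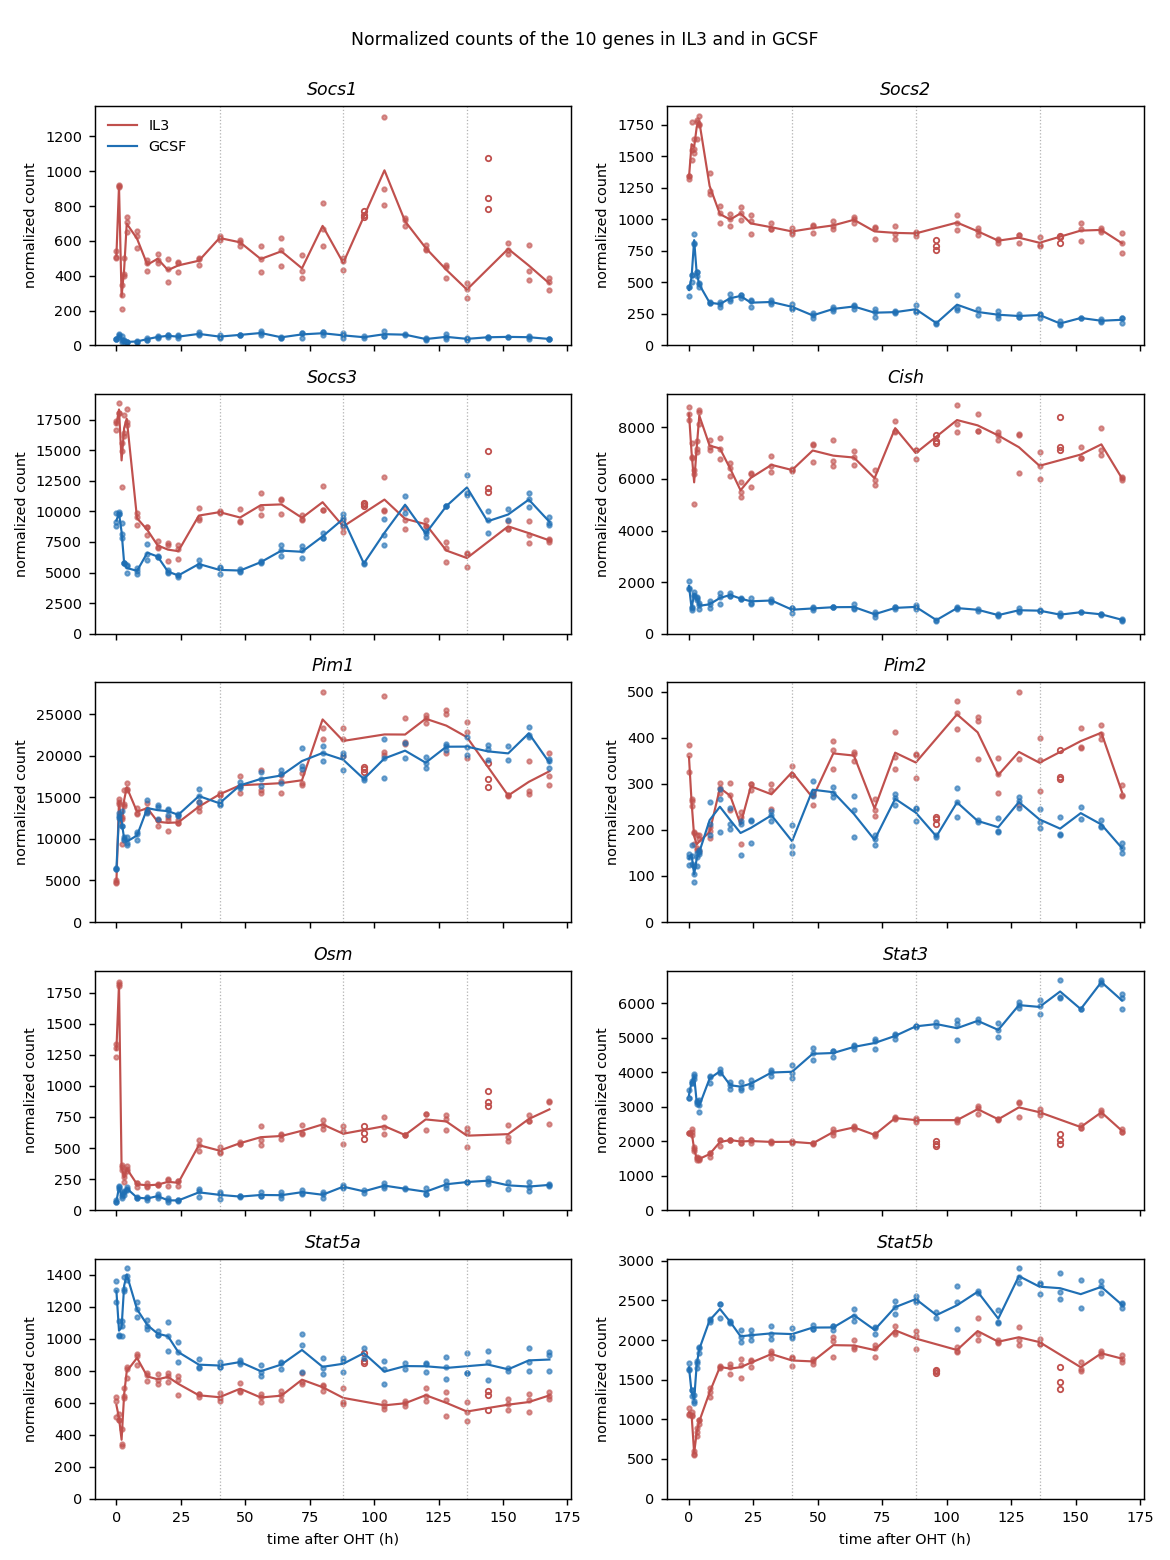
Normalized counts of the 10 genes against the hours after OHT addition, each point a library and each line the mean per time point, in IL3 (red) and GCSF (blue), with open points for IL3-OHT 96h and 144h, which the lines omit; dotted lines mark the renewals of the medium at 40h, 88h and 136h. *Socs1* and *Cish* in GCSF stay at or below 84.4 and 1607 normalized counts after OHT, under every IL3-OHT library.

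The exchange of IL3 for GCSF was described first, before PU.1 is activated. By the paper's methods, cells were also washed with PBS and reseeded at this exchange. The part of this handling and of the 48 h of culture in the differences was not tested. Of the 10 genes, 8 were called differentially expressed at GCSF 0h against undifferentiated cells (limma, adjusted p under 0.05 and a log2 fold change beyond 0.58 in either direction), where 33.7% of all genes tested were called. Lower were 6 genes (20.7% of all genes), which were the 4 feedback inhibitors, *Pim2* and *Osm*. Higher were *Stat5a* and *Stat5b* (13% of all genes). The median log2 fold change was -1.13 over the 10 genes and -0.09 over all genes tested.

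*Osm* had 1333, 1304 and 1236 normalized counts in the undifferentiated libraries and 67.5, 68.2 and 80.1 at GCSF 0h. Its log2 fold change was -4.15 ± 0.13 (SE, the standard error, adjusted p = 2.69e-55), the largest of the 10. *Socs1*, the direct JAK inhibitor, had 543, 509 and 499.9 against 38.8, 38.1 and 39.1, a change of -3.71 (SE 0.18, adjusted p = 3.28e-39). The libraries of either gene lay more than 10-fold apart between the groups, with little spread within them. *Cish* had 8775, 8538 and 8283 against 2062, 1785 and 1726, a change of -2.20 (SE 0.08, adjusted p = 4.10e-50). *Socs2* fell from 1335 ± 14.8 to 439 ± 41.7 (SD, n = 3 each), a change of -1.60, and *Pim2* from 358 ± 29.5 to 137.6 ± 11.6, a change of -1.37.

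*Socs3*, the brake on the GCSF receptor itself, was also lower in GCSF. Its libraries had 17393, 16694 and 17219 normalized counts in IL3 and 9831, 9148 and 8820 in GCSF, a log2 fold change of -0.89 ± 0.08 (SE, adjusted p = 4.75e-19). Among the STAT genes, *Stat5a* rose from 632, 611 and 508 to 1361, 1228 and 1301, a change of 1.16 (SE 0.08, adjusted p = 2.17e-27). *Stat5b* had 1061, 1144 and 1060 against 1626, 1705 and 1635, and its change of 0.61 (SE 0.05) lay just past the threshold. *Stat3* lay just inside it, with 2249, 2232 and 2246 against 3265, 3487 and 3258 and a change of 0.57 (adjusted p = 1.26e-27), and *Pim1* stayed further below it with a change of 0.40 (adjusted p = 4.31e-06). The libraries of these 4 genes did not overlap between the groups, but the share of all genes without such overlap was not determined.

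**Figure D2:**
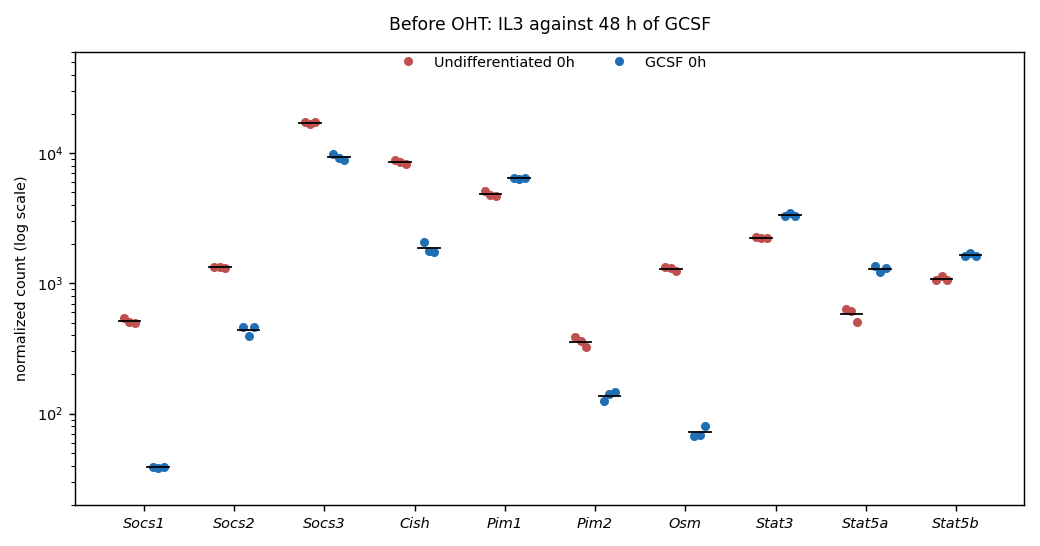
Normalized counts (log scale) of the 10 genes in the 3 undifferentiated libraries in IL3 (red) and the 3 libraries after 48 h of GCSF (blue), both without OHT, with black bars for the means. The largest gap is that of *Osm*, from a mean of 1291 to 71.9.

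The response after the addition of OHT was followed from its first hour. By the paper's methods, the undifferentiated libraries are the start of both courses. The cells for the IL3 course were also reseeded 48 h before OHT. Whether the undifferentiated cells were taken before or after that culture is not clear. Its part in the comparisons with undifferentiated cells, and in the interactions that use them, was not tested. In IL3, 2 of the 10 genes were called at 1h against undifferentiated cells, where 4.42% of all genes were called. *Pim1* rose from 5102, 4771 and 4710 normalized counts to 14466, 14209 and 14784, a log2 fold change of 1.58 ± 0.08 (SE, adjusted p = 1.88e-35). *Socs1* rose from a mean of 517 to 916, a change of 0.82 (SE 0.18, adjusted p = 1.46e-04). *Osm* stood at 1805, 1820 and 1839 at 1h, above all 3 undifferentiated libraries, but its change of 0.50 was below the fold-change threshold.

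In GCSF, 3 of the 10 genes were called at 1h against GCSF 0h (6.05% of all genes). *Pim1*, the survival kinase, rose here too, from 6429, 6337 and 6454 to 12514, 12758 and 13067, a log2 fold change of 1.00 ± 0.08 (SE, adjusted p = 2.02e-21). *Osm* rose from a mean of 71.9 to 169.1, 188 and 197.2, a change of 1.35 (SE 0.13, adjusted p = 7.88e-16). *Cish* fell from a mean of 1858 to 1017, 1045 and 920, a change of -0.90 (SE 0.08, adjusted p = 2.84e-18). In IL3 the change of *Cish* over the same hour was -0.28, below the threshold.

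The difference between these first-hour responses was tested as an interaction, which called 2 of the 10 genes (2.81% of all genes). The response of *Cish* was lower in GCSF than in IL3 by 0.62 on the log2 scale (SE 0.11, adjusted p = 1.73e-05), and that of *Osm* exceeded the one in IL3 by 0.85 (SE 0.19, adjusted p = 5.17e-04). For *Cish* the call rested on the third replicates, since the difference was -0.56 without replicate 3, below the threshold. For *Pim1* the difference was -0.58 (95% interval from -0.80 to -0.36), just inside the threshold. For *Socs1* it was -0.26 (95% interval from -0.75 to 0.24), an interval that includes no difference as well as a difference past the threshold.

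From 1h to 2h in IL3, 3 of the 10 genes were called, all lower, at a step where 15.2% of all genes were called. Between 1h and 2h *Osm* fell from a mean of 1821 to 349, 362 and 324, a log2 fold change of -2.40 ± 0.13 (SE, adjusted p = 7.15e-33). *Socs1* fell from 916 to 281, a change of -1.73, and *Stat5b* from 1063 to 548, 605 and 568, a change of -0.89 (SE 0.05, adjusted p = 1.45e-33). *Stat5a*, the close relative of *Stat5b*, fell from 505 to 340, 433 and 330, a change of -0.47 that did not pass the threshold, and rose again to 653 at 3h (log2 fold change 0.84, SE 0.08). From 2h *Socs1* climbed to 438 at 3h and 699 at 4h, whereas *Osm* went on to 264 at 3h and 200.5 at 12h.

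In GCSF 4 of the 10 genes were called from 1h to 2h, where 5.19% of all genes were called. The difference between the cytokines was not tested at this step. *Osm* and *Socs1* were lower at 2h, as in IL3, and *Socs2* and *Cish* were higher. *Osm* had 134.7, 111.7 and 102.1 at 2h, a change of -0.67. *Cish* went from 994 at 1h back to 1456, 1607 and 1505 at 2h (log2 fold change 0.62, adjusted p = 1.76e-10). *Socs2* rose from 541 to 814, 806 and 886 at 2h, its highest mean in GCSF (log2 fold change 0.63, SE 0.08, adjusted p = 1.30e-10), and was at 203.6 by 168h. *Socs1* fell from 58.6 at 1h to 20.3, 31.5 and 53.5 at 2h, replicates that lay far apart, and reached its lowest mean of 20.2 ± 1.22 (SD, n = 3) at 4h. At that time point its mean in IL3 was 699.

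*Socs3* in IL3 had means of 18331 at 1h, 14169.8 at 2h and 16817 at 3h, changes below the fold-change threshold, and fell between 4h and 8h. It had 17278, 17054 and 18394 normalized counts at 4h and 8881, 9908 and 9543 at 8h, a log2 fold change of -0.90 ± 0.08 (SE, adjusted p = 1.66e-18) and the only step between consecutive IL3 time points at which it was called. In GCSF it had already dropped to 5643, 5505 and 4990 by 4h. This left the gene -1.71 apart on the log2 scale at 4h (SE 0.08), its largest difference between the cytokines at any time point. *Pim1* was also called lower in GCSF at 4h and at no other time point, with 10252, 9470 and 9283 against 16041, 15862 and 16701.

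**Figure D3:**
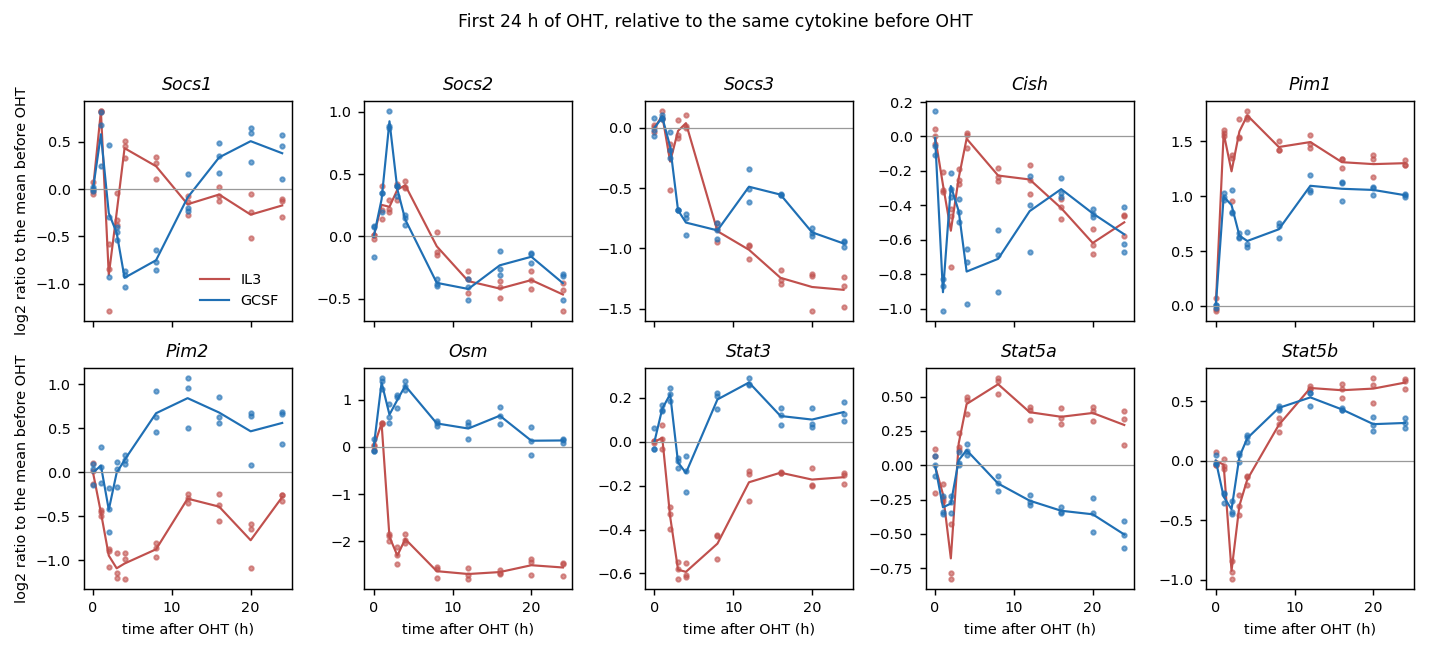
Log2 ratio of each library to the mean before OHT in the same cytokine over the first 24 h, in IL3 (red) and GCSF (blue), with lines through the means and a vertical scale that differs between panels. *Osm* falls below its start in IL3 after 1h, and *Pim1* rises in both cytokines.

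To compare the cytokines over the whole of differentiation, GCSF-OHT was set against IL3-OHT as the mean over 25 shared time points. By this measure 5 of the 10 genes were called, where 24.5% of all genes were called. *Socs1* (-3.45), *Cish* (-2.76), *Osm* (-1.77) and *Socs2* (-1.70) were lower in GCSF, against 15.1% of all genes, and *Stat3* (1.04) was higher, against 9.34% of all genes, with SEs of 0.01 to 0.04 on the log2 scale. *Stat5a* (0.53), *Stat5b* (0.44), *Pim2* (-0.51) and *Socs3* (-0.40) had adjusted p-values of 3.37e-36 or less but stayed under the fold-change threshold, and *Pim1* differed by -0.05. The median over the 10 genes was -0.46, and over all genes -0.06.

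Taken time point by time point, 63.6% of the 250 pairs of gene and time point were called, against 22.7% of all pairs over the genes tested. *Socs1*, *Socs2*, *Cish* and *Osm* were called lower in GCSF at all 25 time points, as were 1.44% of all genes. *Stat3*, the STAT best known for GCSF signaling, was called higher at all 25, as were 1.08% of all genes. Its difference lay between 0.71 at 1h and 1.40 at 168h. The difference of *Cish* was -2.82 at 1h, which was also its median over the time points, -1.94 at 2h and -3.48 at 168h, whereas that of *Socs1* was widest at 4h, at -5.04. *Stat5a* and *Stat5b* were called higher at 5 time points each, mostly in the first 8h, with their largest differences at 2h, 1.55 and 1.12. *Pim2* was called lower at 11 time points and *Pim1* at 1.

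**Figure D4:**
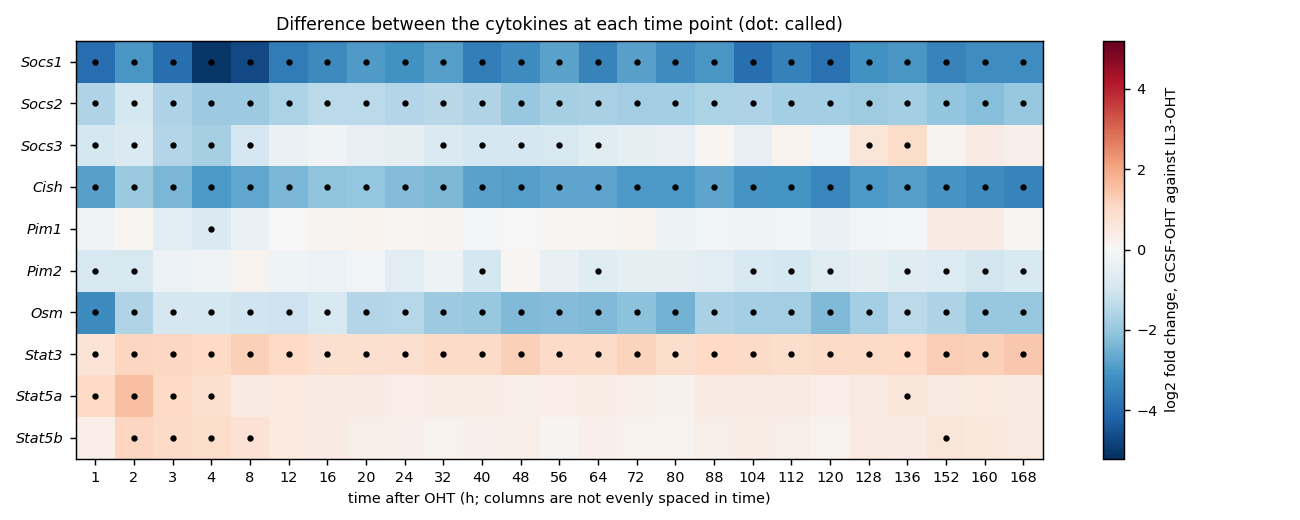
Log2 difference between GCSF-OHT and IL3-OHT (GCSF minus IL3) for the 10 genes (rows) at the 25 shared time points (columns), blue for lower in GCSF and red for higher, with a dot where the gene was called. *Socs3* turns from lower in GCSF, -1.71 at 4h, to higher, 0.95 at 136h.

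*Socs3* was the gene called in both directions, although the differences of *Pim1* (from -0.75 to 0.44) and *Pim2* (from -0.95 to 0.17) also took both signs. *Socs3* was called lower in GCSF at 10 time points, at each from 1h to 8h and at each between 32h and 64h, and higher at 128h and 136h. At 24h it had 4659, 4819 and 4815 normalized counts in GCSF, its lowest mean there, against 6106, 7254 and 6892 in IL3. At 136h it had 11379, 11511 and 12992 in GCSF, its highest mean, against 6513, 5480 and 6574 in IL3, its lowest. The groups did not overlap at either time, in opposite directions, and at 168h the difference of 0.26 was again below the threshold.

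That the cytokine difference moved with time was tested by setting 152h to 168h against 1h to 4h. This contrast called 6 of the 10 genes, and 29% of all genes. *Socs3* had the largest shift, with GCSF gaining 1.504 on the log2 scale relative to IL3 (SE 0.06, adjusted p = 8.01e-45). *Socs1* (0.68) and *Pim1* (0.66) shifted the same way, and *Cish* (-0.74), *Stat5a* (-0.64) and *Socs2* (-0.60) shifted toward IL3. Without replicate 2 the shift of *Socs2* was -0.57, and without replicate 3 that of *Stat5a* was -0.56, both below the threshold. For *Osm* it was -0.18 (95% interval from -0.39 to 0.02).

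The endpoints of the courses gave a similar number of calls in each cytokine. At IL3-OHT 168h, 5 of the 10 genes were called against undifferentiated cells (25.4% of all genes). *Pim1* rose to 20345, 16536 and 17514 normalized counts, a log2 fold change of 1.89 ± 0.08 (SE, adjusted p = 2.02e-44), and *Stat5b* rose by 0.70 (SE 0.05) to a mean of 1765. *Socs3* fell by 1.16 on the log2 scale (SE 0.08, adjusted p = 1.61e-26) to 7657, 7475 and 7762, *Socs2* by 0.72 to a mean of 811 and *Osm* by 0.68 to a mean of 811. Without replicate 1 the change of *Osm* was -0.54, below the threshold. *Cish*, at 6024 ± 49.4 (SD, n = 3), changed by -0.50, which did not pass it.

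At GCSF-OHT 168h, 5 of the 10 genes were called against GCSF 0h (24.8% of all genes), which is also the reference of the first-hour comparison in GCSF. *Cish* had 589, 535 and 499 normalized counts, a log2 fold change of -1.78 ± 0.08 (SE, adjusted p = 2.43e-41), and *Socs2* 218, 215.2 and 177.1, a change of -1.11. *Pim1* rose by 1.58 to 19336, 18560 and 19585, and *Osm* by 1.49 to 204.6, 208.6 and 199. *Stat3* rose by 0.86 (SE 0.04, adjusted p = 3.90e-42) to 6137, 5835 and 6251, from a mean of 3337. *Socs1* and *Socs3* had changes of -0.05 (95% interval from -0.40 to 0.30) and -0.02 (95% interval from -0.17 to 0.14).

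The interaction over 168h called 5 of the 10 genes, against 25.7% of all genes. The response to OHT was higher in GCSF than in IL3 for *Osm* by 2.17 on the log2 scale (SE 0.19, adjusted p = 1.97e-19), for *Socs3* by 1.15 (SE 0.11) and for *Stat3* by 0.83 (SE 0.05). It was lower in GCSF for *Cish* (-1.28, SE 0.11, adjusted p = 7.72e-19) and for *Stat5a* (-0.73, SE 0.11). The difference of *Stat5a* was -0.54 without replicate 3, below the threshold. *Pim1*, called higher at 168h in both cytokines, differed by -0.31 (95% interval from -0.53 to -0.10), which was not past the threshold.

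The cultures were renewed with some new medium and OHT at 40h, 88h and 136h, so 48h, 96h and 144h were the first time points after each renewal. Each was set against the mean of the time points on either side. At 48h none of the 10 genes was called by limma in IL3 (1.6% of all genes) or in GCSF (0.35% of all genes). In IL3 2 and in GCSF 3 of the 10 had an unadjusted p under 0.05, and edgeR and DESeq2 also called 0 in each. The largest of these changes was 0.37 on the log2 scale, for *Pim2* in GCSF.

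At 96h in GCSF, 3 of the 10 genes were called lower than at 88h and 104h, where 4.65% of all genes were called. *Cish* had 549 and 510 normalized counts in the 2 libraries of 96h, against 955, 1127 and 1042 at 88h and 1000.4, 1024 and 956 at 104h, a log2 fold change of -0.94 ± 0.08 (SE, adjusted p = 3.57e-18). *Socs2* had 180.97 and 173.61, against means of 287 and 323, a change of -0.77 (SE 0.08, adjusted p = 4.02e-14). *Socs3* had 5706 and 5789, against means of 9390 and 8251, a change of -0.61 (SE 0.08, adjusted p = 7.12e-10). All 3 are feedback inhibitors, whereas the feedback inhibitor *Socs1* was not called. For each of the 3, both 96h libraries lay below every library of 88h and 104h. The share of all genes with this pattern was not determined. Without replicate 2, which leaves 1 library at 96h, the change of *Socs3* was -0.56, below the threshold. At 144h in GCSF limma, edgeR and DESeq2 called none (1.85% of all genes), although 4 of the 10 had an unadjusted p under 0.05, and the largest change was that of *Socs2*, -0.40.

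In IL3 the 96h and 144h libraries are those the authors left out, and there 17.5% and 15.4% of all genes were called against the neighbors. At 96h 1 of the 10 genes was called, *Pim2*, which had 213, 224 and 228 normalized counts against means of 346 at 88h and 450.5 at 104h, a log2 fold change of -0.83 ± 0.11 (SE, adjusted p = 3.21e-10). At 144h 2 were called. *Socs1* had 784, 848 and 1074 against means of 321 and 555, a change of 1.09 (SE 0.15, adjusted p = 6.17e-10), and *Socs3* had 11620, 11913 and 14901 against means of 6189 and 8778, a change of 0.79 (SE 0.07, adjusted p = 3.93e-19). All 3 libraries of *Socs3* at 144h lay above every library of 136h and 152h.

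The difference between the cytokines at 96h and 144h together was tested as an interaction and called 3 of the 10 genes, against 9.78% of all genes. *Socs3* (-0.88, SE 0.07), *Socs1* (-0.73, SE 0.16) and *Cish* (-0.66, SE 0.07) were lower in GCSF relative to their neighbors than in IL3, with adjusted p-values of 7.20e-05 or less. Without replicate 2 the differences of *Socs1*, -0.56, and *Cish*, -0.58, were below the threshold, and *Socs3* alone was called. Since IL3-OHT 96h and 144h were excluded by the authors, the part of those libraries in this difference was not tested.

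**Figure D5:**
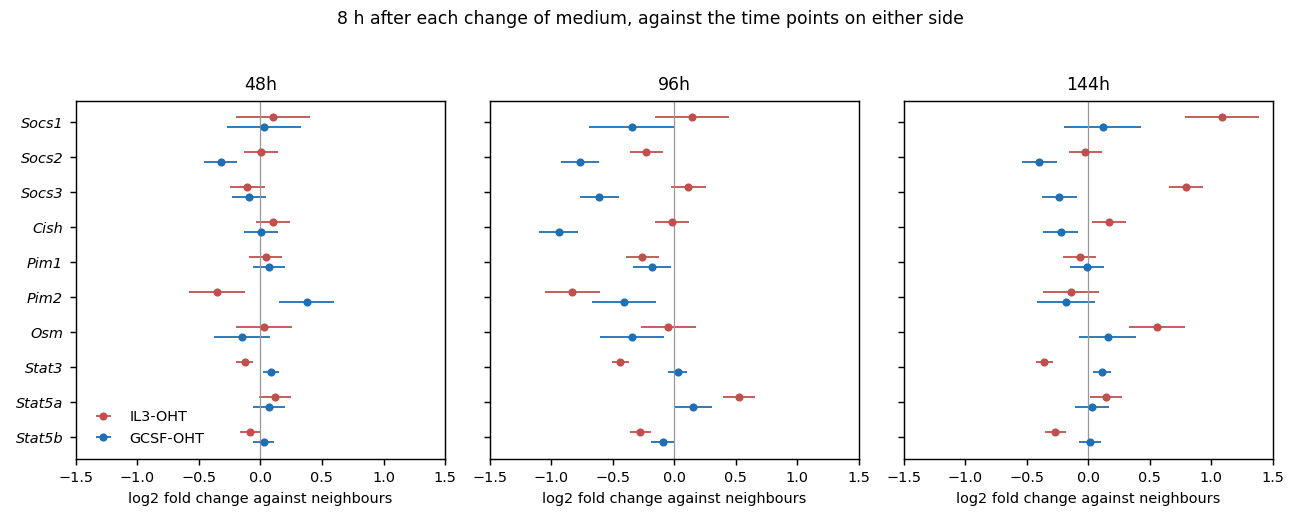
Log2 fold change of 48h, 96h and 144h against the mean of the time points on either side for the 10 genes, in IL3-OHT (red) and GCSF-OHT (blue), with 95% intervals from limma. At 96h *Cish* lies at -0.94 in GCSF and -0.02 in IL3.

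Changes of the 10 genes between consecutive time points were counted as pairs of gene and step. In IL3, 14 of 250 pairs of gene and step were called, against 3.65% of all pairs, and *Socs1* accounted for 7 of them. In GCSF, 20 of 270 pairs were called, against 1.81% of all pairs, and *Osm* accounted for 5. *Stat3* was called at no step in either cytokine, although its mean in GCSF went from 3027 at 4h to 6606 at 160h. From 24h to 32h *Osm* rose in both cytokines, from 194.9, 235 and 233 to 527, 478 and 565 in IL3 (log2 fold change 1.24, SE 0.13, adjusted p = 1.05e-12) and from 76.4, 80.8 and 79.9 to 173.65, 152 and 106 in GCSF (log2 fold change 0.83, adjusted p = 7.32e-06). It was the only 1 of the 10 called at that step, at which 0.356% of all genes were called in IL3 and 0.172% in GCSF. From 32h on the cells were detached with trypsin, and the part of this step in the change was not tested.

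*Pim1* and *Stat5b* followed long courses of their own. *Pim1* reached its highest mean in IL3 at 120h, 24451 ± 473 (SD, n = 3), and in GCSF at 160h, 22695 ± 636 (SD, n = 3). In IL3 its libraries already had 27688, 23379 and 22035 normalized counts at 80h, a range that includes the mean of 120h. The libraries of 120h carry another prefix in their names than those of the other time points. *Stat5b* rose from its dip at 2h in IL3 to 2122 ± 52.8 (SD, n = 3) at 80h, and in GCSF to 2807 ± 93.2 (SD, n = 3) at 128h. *Stat5a* moved differently from *Stat5b* in GCSF, from 1400 ± 40.3 (SD, n = 3) at 4h to a lowest mean of 794 ± 73.5 (SD, n = 3) at 104h.

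How alike the genes were was described by Pearson's r of log2 group means, which has no test here because consecutive time points of 1 culture series are not independent. Within GCSF (28 groups) the closest pair was *Pim1* and *Stat3* (r = 0.90), whereas *Pim1* and *Stat5a* ran in opposite directions (r = -0.88). *Socs2* and *Stat5b* ran in opposite directions in both, with r = -0.86 in GCSF and -0.91 within IL3 (26 groups). *Socs2* and *Cish* had r = 0.77 in GCSF and 0.19 in IL3, and *Socs2* and *Socs3* had -0.25 in GCSF and 0.82 in IL3. Other pairs had similar r in both, such as *Stat3* and *Stat5b* (0.73 in GCSF and 0.68 in IL3). The difference of these r between the cytokines was not tested.

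Among 12298 genes that averaged 10 or more normalized counts, the gene closest to *Cish* over 54 groups was *Ccnd2*, which encodes cyclin D2 (r = 0.98), and *Ccnd2* was also the closest to *Socs1* (r = 0.95). Within IL3 r was -0.15 for *Cish* and 0.04 for *Socs1*, and within GCSF it was 0.73 and -0.00025. The gene closest to *Socs3* was *Nfkbia*, the gene of the NF-κB inhibitor IκBα (r = 0.85, and 0.72 within IL3 and 0.89 within GCSF). For *Osm* it was *Ppp1r15a*, a stress-response gene (r = 0.93), followed by *Lrp4* and the phosphatase gene *Dusp1*. For *Pim1* it was *Cyp2a5* (r = 0.84), for *Pim2* *Mboat2* (r = 0.92) and for *Stat5a* *Cyp27a1* (r = 0.91). For *Stat3* it was *Mtmr3* (r = 0.97), for *Stat5b* *Lrch4* (r = 0.96) and for *Socs2* *Map6* (r = 0.97), each with r of 0.76 or more within both courses.

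The rest of the pathway was read from 46 further genes, of which 44 passed the filter. At GCSF 0h 9 of the 44 were called higher, where 13% of all genes were, and 10 lower, where 20.7% of all genes were, with a median log2 fold change of -0.10. Among them, the 16 other STAT targets had 3 called higher and 7 lower, with a median of -0.57. *Csf3r*, the GCSF receptor, rose from 1099 ± 75.7 to 5718 ± 403 normalized counts (SD, n = 3 each), a log2 fold change of 2.38 ± 0.06 (SE, adjusted p = 7.42e-63). *Cebpd* (2.13) and *Bcl3* (1.86) rose as well, while the survival gene *Mcl1* (-1.96), *Il4ra* (-1.63) and *Ccnd2* (-1.40) fell. *Osmr* and *Il6st*, the chains of the oncostatin M receptor, were at or under the limit of 3 reads in the groups examined.

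Over the mean of the 25 time points, 8 of the 44 pathway genes were called higher in GCSF (9.34% of all genes) and 6 lower (15.1% of all genes), with a median of 0.09. Among them, the 16 other STAT targets had 3 called higher and 5 lower, with a median of -0.43. *Csf3r* (3.35), *Bcl3* (2.36) and *Bcl6* (1.60) were highest in GCSF relative to IL3, and *Ccnd2* (-1.74), the survival gene *Bcl2l1* (-1.61) and *Id1* (-0.99) lowest. The called inhibitors and JAK kinases are named because few of each were called, a choice made after their values were seen. Of 14 other inhibitors of the pathway, *Ptpn6*, the phosphatase SHP-1, was higher in GCSF (0.93) and *Socs6* lower (-0.63). Of 4 JAK kinases *Jak3* was higher (0.85). Of 4 other STAT genes 2 were called higher and 0 lower, with a median of 0.75. The median over these 14 inhibitors was 0.07. At 168h, 18 of the 44 were called higher and 2 lower against GCSF 0h, and 11 higher and 6 lower in IL3 against undifferentiated cells. Of the 17414 genes tested, 2110 were called higher and 2200 lower in GCSF, and 1782 higher and 2641 lower in IL3. In GCSF *Csf2rb2*, a receptor chain for IL3 (2.36), *Ptpn1* (1.92) and *Mcl1* (1.85) rose most, and *Stat4* (-0.92) and *Myc* (-0.85) fell. In IL3 *Cebpd* (2.77), *Csf2rb2* (1.53) and *Ptpn1* (1.49) rose most, and *Myc* (-1.01), *Socs6* (-0.98) and *Sh2b3* (-0.73) fell most.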

How the data were processed

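PUER cells were sequenced as poly(A) RNA. Per the paper's methods and the submitters' notes, reads were mapped with Salmon to GRCm38 and scaled by the median-of-ratios method of DESeq2 (versions not given in the sources used here). The deposited values are therefore normalized signal (reads over a size factor), called normalized counts here, for 36255 gene symbols. In each library 1 read has a fixed value, and 100% of values were whole reads on that scale (relative tolerance 1e-06), so reads were recovered from them. In 7 libraries the size factor was close to 1. The table had 0 columns of other samples. How transcripts were brought to genes and whether the libraries were stranded are not given in the sources used here.

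Groups and replicate numbers came from the labels. The test was limma 3.58.1 in R 4.3.3 on log2(normalized count + 1), which understates fold changes of low genes, with a mean for each group and moderated variances that follow a trend (8.12 prior degrees of freedom). Genes entered with a value of 5 or more in any library, which left 17414 without IL3-OHT 96h and 144h. The comparisons of 48h, 96h and 144h with their neighbors used all libraries (17439 genes). P-values were adjusted by the Benjamini-Hochberg method over all genes of a comparison. A call needed an adjusted p below 0.05 together with a log2 change of more than 0.58 up or down. Comparisons of a fit share 1 estimate of the spread, and several share their reference libraries.

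The alternatives were pseudocounts of 0.5 and 5, no filter, a filter on the mean at 10, upper-quartile scaling, the replicate number as a block, each replicate left out, IL3-OHT 96h and 144h added to or left out of the fit, edgeR 4.0.16 (quasi-likelihood, TMM) and DESeq2 1.42.0 (Wald) on the recovered reads, and, chosen after seeing the data, leaving out 120h. The limma, edgeR and DESeq2 steps were tested on simulated data. Same-numbered libraries did not deviate together on average (mean r of -4.93e-05 between deviations from group means). Single pairs had r as low as -0.41, and 9.36% of them exceeded 0.1, so pairing within some groups is not excluded. The replicate numbers were used as a block only in an alternative. Replicates differed by more than counting error, with a chi-square per gene of at least 2.25 in 162 pairs.

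All 10 genes are named with their values. Of the pathway list, up to 3 called genes per direction with the largest fold change are named in the comparisons described. Some genes of the lists are not reported here. The genes most like each of the 10 are those with the highest r of log2 group means, up to 3 for each. The 10 genes, the lists and the tests were chosen with earlier results of these data known. Coordinates are from GENCODE M21 (GRCm38) and promoter sequences from RefSeq (GRCm38.p6). Plots were drawn with matplotlib 3.10.9 under Python 3.11.15.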

Additional observations from a re-analysis of the deposited data

Results flagged for a closer look

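Results are listed here because a test of the difference itself found that the effect in GCSF was not that in IL3 (limma interaction, past both thresholds). All values are log2 fold changes, GCSF minus IL3.

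Over the first hour of OHT the response differed for *Cish* by -0.62 and for *Osm* by 0.85. Over 168h it differed for *Osm* by 2.17, for *Cish* by -1.28, for *Socs3* by 1.15, for *Stat3* by 0.83 and for *Stat5a* by -0.73. Between the late (152h to 168h) and the early (1h to 4h) time points the cytokine difference shifted for *Socs3* by 1.504, for *Cish* by -0.74, for *Socs1* by 0.68, for *Pim1* by 0.66, for *Stat5a* by -0.64 and for *Socs2* by -0.60. At 96h and 144h against their neighbors it differed for *Socs3* by -0.88, for *Socs1* by -0.73 and for *Cish* by -0.66. The tests are not independent. The first-hour and 168h tests share the undifferentiated and GCSF 0h libraries, and the late-minus-early test shares the 1h and 168h libraries with them. For *Cish* the difference was -0.56 over the first hour without replicate 3 and -0.58 at 96h and 144h without replicate 2, both below the threshold. Also below it without replicate 2 were *Socs1* at 96h and 144h (-0.56) and the late-minus-early shift of *Socs2* (-0.57). Without replicate 3, *Stat5a* fell below it over 168h (-0.54) and in the late-minus-early shift (-0.56). The dose of OHT differed between the cytokines as well, and its part cannot be told apart. The part of reseeding and culture before OHT in the first-hour and 168h tests was not tested.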

How the results depend on the processing

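Under the 13 alternatives, 225 of 227 recomputed numbers of called genes stayed within 1.5 times the reported one, and the 2 others came from leaving out a replicate. Over the replicates left out, the number of the 10 genes called ranged from 1 to 3 for the first hour of OHT, GCSF minus IL3 (2 as reported; 1 without replicate 3), and from 1 to 3 for 96h and 144h against their neighbors, GCSF minus IL3 (3 as reported; 1 without replicate 2). Of 599 recomputed fold changes of called genes, 0 changed sign and 8 fell below the threshold, each with a replicate left out and each named beside its result. GCSF-OHT 96h, 112h and 152h then keep 1 library when replicate 1 or 2 is left out, which is assumed to vary like the other groups. The replicate block gave the same number in each of the 19 comparisons, such as 8 of 10 at GCSF 0h, 63.6% of the pairs over the time points and 5 for the mean of 25 time points, and changed no call. Without the 120h libraries the mean also called 5. Scaling moved the median of all genes by -0.03 to 0.04. For all genes tested, the number called moved by over 1.5 times in 6 of 190 cases: from 61 to 23 without replicate 1, to 39 without replicate 3 and to 93 with edgeR at GCSF-OHT 48h, from 322 to 0.534 times as many without replicate 1 at GCSF-OHT 144h, from 279 to 0.398 times as many without replicate 2 at IL3-OHT 48h and from 811 to 424 without replicate 2 at GCSF-OHT 96h. IL3-OHT 96h and 144h could not be left out of their own comparisons. Depth limits *Socs1* in GCSF, which had as few as 18 reads in a library and, with a median coefficient of variation of 15.3%, the widest spread of the 10.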
